A study of Mus musculus with 52 samples.

Results

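Peaks of SmcHD1, CTCF and the cohesin subunit Rad21 were examined around 9 growth-response genes of the mouse, Jun, Junb, Jund, Fos, Fosb, Fosl1, Fosl2, Atf3 and Myc. Each gene, as annotated on mm10 by GENCODE M21, was extended by 100 kb on both sides, and all listed peaks that touched this window were taken as its peaks. The 9 genes are among 21755 protein-coding genes treated in the same way. In wild-type cells the windows held 172 of 67655 Rad21 peaks, 154 of 60204 CTCF peaks and 7 of 6993 SmcHD1 peaks.

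Jun and Fos proteins pair through leucine zippers to form the transcription factor AP-1, which binds short palindromic sites in promoters and enhancers. Growth factors and stress induce several of these genes within minutes, so that AP-1 and Myc are early relays between signals at the cell surface and the genes for growth and division. CTCF binds a long directional motif and stops the loop-extruding cohesin ring, so that most strong cohesin sites lie at CTCF, whereas cohesin sites without CTCF are often found at active promoters and enhancers.

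The cells were female mouse embryonic fibroblast (MEF) clones from an interspecific cross of Mus musculus domesticus (FVB) and Mus musculus castaneus, made to ask what SmcHD1, an SMC protein of the inactive X chromosome, does for chromosome architecture. The wt lists came from 1 wild-type clone. The mut lists came from 1 clone of the germline null allele MommeD1, and the somKO lists from the clones A3-3 and D4, in which SmcHD1 had been disrupted with CRISPR in another wild-type clone. Autosomes of these F2 cells are mosaic for both strains and reads of both alleles were pooled, so that SmcHD1 loss, clone and local strain origin cannot be told apart. All groups carry an inactive X chromosome, and none was treated with a growth factor according to the labels. The paper states that the fibroblasts were cultured in medium with foetal calf serum. For immunoprecipitation they were grown to semi-confluency.

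Each list pools all libraries of its group, 3 for SmcHD1 in wt and 3 in mut, 3, 3 and 4 for CTCF in wt, mut and somKO, and 2, 2 and 4 for Rad21. No value below therefore has a replicate error, no p-value was computed, and intervals are 95% Wilson intervals that cover counting error only. The lists hold no read counts, so the depth is unknown. List length differed, with 66031 Rad21 peaks in mut and 89974 in somKO, and 57798 and 69736 CTCF peaks, so that more peaks in somKO are read here against the whole list. The lists hold no expression values, and the fibroblast label was not checked against marker genes.

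Sequences are given first for the sites on which the results turn. At CTCF sites the core of the CTCF motif, spelled as CC, any 3 bases, AG, any 2 bases and GGC and searched on both strands, is in capitals, and each sequence is read on the strand of the core. The following lie in wt CTCF peaks at the promoters of Junb, Jund and Fosb, in the strongest distal CTCF peak of the Fos window, and in the CTCF peak upstream of Myc. The Junb peak has its midpoint 2.66 kb downstream of the gene start. It counts as a promoter peak only through another annotated transcript start inside the gene.
Junb, chr8:84975594-84975633, plus strand: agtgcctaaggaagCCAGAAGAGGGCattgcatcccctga
Junb, chr8:84976219-84976258, minus strand: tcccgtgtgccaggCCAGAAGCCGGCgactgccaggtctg
Jund, chr8:70699418-70699457, plus strand: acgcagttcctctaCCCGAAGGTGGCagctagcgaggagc
Jund, chr8:70699518-70699557, minus strand: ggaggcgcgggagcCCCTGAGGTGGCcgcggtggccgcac
Fosb, chr7:19310465-19310504, plus strand: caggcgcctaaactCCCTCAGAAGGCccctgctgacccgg
Fos, chr12:85487914-85487953, minus strand: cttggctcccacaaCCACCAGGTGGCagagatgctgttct
Myc, chr15:61975191-61975230, plus strand: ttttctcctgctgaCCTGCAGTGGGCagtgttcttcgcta

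Distal Rad21 sites without CTCF that were listed in all 3 genotypes are shown next, because they are the cohesin sites of these windows that neither CTCF nor a promoter marks. There were 11 such sites, and 1 match each is printed for the 6 whose wt peak held the AP-1 letters TGANTCA, in capitals on the plus strand. The wt peaks of the other 5, at Junb, Fos, Fosb, Atf3 and Myc, held none. Whole wt peaks were searched for this count, and no whole-peak share was computed for the list. In 2 of the 11, the Myc sites at 13.64 and 43.3 kb, the letters lay in the central 301 bp of the wt peak. In that central window 30.2% of the distal Rad21 peaks without CTCF in the whole wt list held them. The Jun site lies 53.93 kb upstream of the gene, the Fosl2 sites 100.61 and 83.44 kb upstream, and the Myc sites 13.64, 43.3 and 63.93 kb downstream, the last inside an intron of Pvt1.
Jun, chr4:95105551-95105591: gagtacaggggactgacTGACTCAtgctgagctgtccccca
Fosl2, chr5:32034568-32034608: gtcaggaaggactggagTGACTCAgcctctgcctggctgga
Fosl2, chr5:32052608-32052648: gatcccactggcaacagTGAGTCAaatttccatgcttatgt
Myc, chr15:61998969-61999009: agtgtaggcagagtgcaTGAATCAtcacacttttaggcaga
Myc, chr15:62028590-62028630: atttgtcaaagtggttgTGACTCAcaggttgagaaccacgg
Myc, chr15:62049548-62049588: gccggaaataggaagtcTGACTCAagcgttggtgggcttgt

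Of the promoter stretches in the RefSeq table for GRCm38, 7 of the 9 genes were matched, and Fosl1 and Myc were not. Among the 7, only Fos held the CTCF core, which 8.61% of 32851 RefSeq promoters hold in 300 bases. None of the 7 held TGANTCA (7.81% of promoters), the cAMP and ATF site TGACGTCA (1.79%), the E-box CACGTG (7.15%) or a CArG box (1.63%) in this window, which says nothing about sites farther upstream. The Jund stretch, chr8:70697489-70697788, lies wholly upstream of the GENCODE gene start at 70698949. The sequence at that start was therefore not searched. The Fos stretch of 250 bases before the start is shown because the core in it, 116 bases before the start, lay under the Rad21 peak of every genotype but in none of the Fos CTCF peaks.
Fos, chr12:85473640-85473889, plus strand: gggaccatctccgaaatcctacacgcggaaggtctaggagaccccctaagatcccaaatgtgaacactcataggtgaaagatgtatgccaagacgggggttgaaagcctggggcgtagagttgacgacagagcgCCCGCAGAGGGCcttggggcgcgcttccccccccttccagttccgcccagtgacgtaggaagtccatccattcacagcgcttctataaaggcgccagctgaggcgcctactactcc

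The windows ranged from near the median of coding genes to among the densest of the genome. In wt, the Rad21 peak number was 8 for Jun, 12 for Myc, 19 for Fos, 20 for Atf3, 21 for Fosl1, 22 each for Junb and Fosb, 23 for Jund and 25 for Fosl2. Per 100 kb this ran from 3.94 for Jun to 11.4 for Jund, against a median of 4.08 over all coding genes, and 8 of the 9 genes lay above that median. CTCF followed another order, from 6 peaks each for Jun and Myc to 26 for Junb, 27 for Atf3 and 28 for Fosl1. Fosl2 thus had the most Rad21 peaks but only 11 CTCF peaks, and the Junb, Jund, Fosb and Fosl1 windows, which hold 18, 12, 12 and 16 other coding genes, had many of both. The Myc window holds no other coding gene, and those of Jun and Fos hold 1 each.

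**Figure D1:**
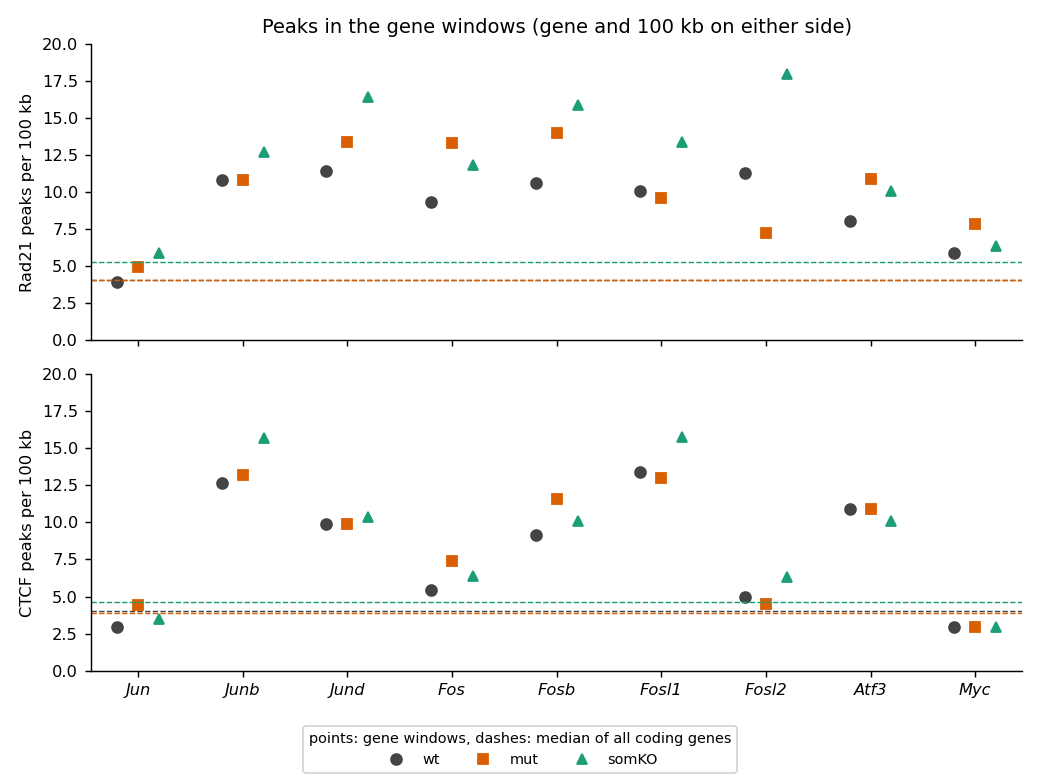
Rad21 peaks (upper panel) and CTCF peaks (lower panel) per 100 kb in the window of each gene, with 1 point per merged list of wt, mut and somKO and dashed lines at the median of all coding genes. Jun and Myc sit lowest for CTCF in every list and for Rad21 in wt and somKO, while in mut Fosl2 lies below Myc for Rad21, and Fosl2 has the widest spread between genotypes for Rad21, from 7.21 in mut to 18.0 in somKO.

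Every one of the 9 genes had a Rad21 peak within 1 kb of one of its own annotated transcript starts in all 3 genotypes. Over all coding genes a Rad21 peak was found there for 53.5% in wt, 57.7% in mut and 59.1% in somKO. A CTCF peak lay at the start of 9 genes in wt, 8 in mut and 9 in somKO, with 35.5%, 40.6% and 39.9% over all coding genes. For Junb in wt and mut this start was an annotated one inside the gene, not the gene's outer start. Fosl1 was the gene without a CTCF peak at its start in mut. Both proteins were listed together at a start in all 3 genotypes for 29.2% of coding genes.

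The Rad21 peaks at these promoters were broad. The widest one of each gene had a median width of 3042 bp in wt, 3608 bp in mut and 3517 bp in somKO, whereas the median promoter peak of the lists was 838, 916 and 1164 bp wide. Fosl2 and Myc stood at the far end. The Fosl2 peak covered 9427 bp in wt, 8279 bp in mut and 11288 bp in somKO, and only 9 of 17563 promoter peaks in wt were at least as wide. The Myc peak covered 8675, 7978 and 10532 bp, and 12 of the 17563 wt promoter peaks were at least as wide, so that it spanned the gene, 5 kb long, and some sequence on both sides. Fosb, Fosl1 and Atf3 lay at the other end in wt, with 1452, 1343 and 1327 bp, which 26.5%, 29.5% and 30.1% of promoter peaks reached or passed. In each genotype 6 of the 9 genes were in the widest 10% of promoter peaks. Broad peaks overlap other lists more readily than narrow ones, which touches each overlap count given for promoters.

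**Figure D2:**
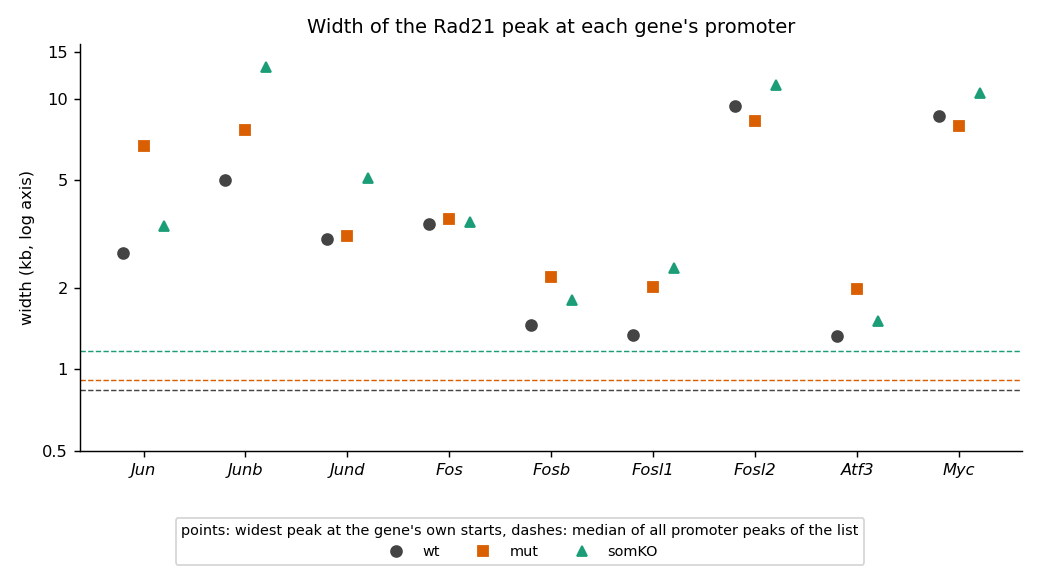
Width of the widest Rad21 peak at the gene's own transcript starts, in kb on a log axis, with 1 point per merged list and dashed lines at the median of all promoter peaks of that list. All 27 points lie above their list's median, and Fosl2 and Myc are above 7 kb in every genotype.

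Among the Jun genes, Jun (ENSMUSG00000052684.4, chr4:95049034-95052222, minus strand) encodes the founding AP-1 subunit. Its promoter region held a pair of Rad21 peaks in wt, 2685 and 2053 bp wide, and in somKO, 3389 and 2285 bp wide, and 1 peak of 6697 bp in mut. A CTCF peak lay 1.13 kb upstream of the start in wt, at the 77.9th percentile of scores in its list, and was listed at 1.12 kb in mut and 1.15 kb in somKO. The window was near the median of coding genes, at the 48.3rd percentile for Rad21 and the 36.9th for CTCF in wt. Its strongest wt Rad21 peak, 43.66 kb downstream in an intron of Gm12694, was at the 94.4th percentile and overlapped CTCF. Of the 8 wt Rad21 peaks 5 had no CTCF peak, against 7 of 10 in mut and 7 of 12 in somKO. No core was found in any of the 6 wt CTCF peaks of the Jun window, whereas 1 of 9 in mut and 1 of 7 in somKO held it. Whole peaks were searched, and over the 9 windows 80 of 154 wt CTCF peaks, 51.9%, held the core. No whole-peak share was computed for the list.

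Junb (ENSMUSG00000052837.6, chr8:84974484-84978718, minus strand) encodes a Jun protein that often opposes Jun in growth control. It had the strongest promoter signal of the Jun genes. Its Rad21 peak lay at the 96.9th percentile in wt, 98.5th in mut and 99.7th in somKO, and covered 4999, 7659 and 13103 bp. The wt CTCF peak over the gene was at the 96.0th percentile and held the 2 opposed cores printed above, on the plus and the minus strand. The strongest Rad21 peak of the window was at the promoter of Hook2, 11.16 kb upstream, at the 99.5th percentile. Most Rad21 peaks of this gene-dense window lay at CTCF, with 7 of 22 without it in wt, 6 of 22 in mut and 10 of 26 in somKO.

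Jund (ENSMUSG00000071076.6, chr8:70698949-70700616, plus strand) encodes the Jun protein that is present in resting cells. The promoter Rad21 peak covered 3042 bp in wt, 3118 bp in mut and 5104 bp in somKO. CTCF at the promoter was weak, at the 20.8th percentile in wt, 30.7th in mut and 34.6th in somKO, although the wt peak held a pair of opposed cores. The strongest CTCF peak of the window, at the 99.9th percentile, lay 68.78 kb upstream in an exon of Gdf15. Peaks of Rad21 that lacked CTCF were 11 of 23 (wt), 13 of 27 (mut) and 18 of 33 (somKO), and the covered length was 21.9 kb in wt, 25.7 kb in mut and 55.3 kb in somKO. The last is 2.53 times the wt value, against 1.63 times for the whole somKO list. By peak number somKO was at 1.43 times wt in the window. In the region of 5 Mb on either side it was at 1.66 times, and in the whole list at 1.33 times.

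Among the Fos genes, Fos (ENSMUSG00000021250.13, chr12:85473890-85477273, plus strand) is the classical immediate-early gene. Its promoter Rad21 peak had a width of 3458 bp in wt, 3608 bp in mut and 3517 bp in somKO, and lay at the 59.6th, 69.7th and 81.1st percentile. A weak CTCF peak 0.81 kb upstream was listed in all 3 genotypes, at the 20.8th, 16.1st and 9.74th percentile. In mut a further CTCF peak of 325 bp lay 0.14 kb downstream of the start, at the 23.5th percentile. Downstream of Fos a row of CTCF and Rad21 peaks ran from 9.59 to 34.81 kb in wt. The strongest of the Rad21 peaks, 2623 bp wide and 13.07 kb downstream, was at the 95.1st percentile and overlapped the CTCF peak whose core is printed above. The wt window held 19 Rad21 peaks, of which 7 had no CTCF peak, the mut window 27, of which 13 had none, and the somKO window 24, of which 11 had none.

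Fosb (ENSMUSG00000003545.3, chr7:19302696-19310051, minus strand), a neuronal and fibroblast partner of Jun proteins, had a promoter Rad21 peak of 1452 bp without CTCF in wt. In mut and somKO the peak was 2200 and 1798 bp wide and overlapped CTCF. Both overlapped a CTCF peak 1.32 kb into the gene, listed in mut at the 32.0th percentile and in somKO at the 21.8th percentile, and absent from the wt list. The CTCF peak 0.58 kb upstream of the start in wt, whose core is printed above, was listed in all 3 genotypes and was overlapped by the promoter Rad21 peak in mut alone. The highest-scoring wt Rad21 peak of the window lay 9.80 kb downstream at the start of Gm26802, at the 98.5th percentile.

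Fosl1 (ENSMUSG00000024912.6, chr19:5447547-5455946, plus strand), which encodes Fra-1, had the narrowest promoter Rad21 peak of the Fos genes in wt and mut, but not in somKO. The Rad21 peak was 1343 bp wide in wt, 2017 bp in mut and 2362 bp in somKO, at the 38.2nd, 57.3rd and 54.5th percentile. It had no CTCF overlap in wt or mut. A CTCF peak 0.67 kb upstream, at the 19.8th percentile in wt, was not listed in mut and lay 0.62 kb upstream in somKO, at the 33.4th percentile. With 28 (wt) and 33 (somKO) CTCF peaks the window had the most of the 9, and with 27 in mut it was level with Junb and Atf3. In wt they were led by a peak 81.35 kb downstream at the 99.5th percentile that held 6 cores.

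Fosl2 (ENSMUSG00000029135.10, chr5:32135801-32157842, plus strand), which encodes Fra-2, differed most between genotypes. Its window had 25 Rad21 peaks in wt, only 16 in mut, and 40 in somKO, but 11, 10 and 14 CTCF peaks. Rad21 peaks without CTCF made up 17 of 25 in wt, 9 of 16 in mut and 31 of 40 in somKO. In wt these 17 were weak, with a median percentile of 17.6, whereas the 8 with CTCF had a median percentile of 79.2. Of the 17 peaks without CTCF 14 had no mut peak, against 2 of the 8 with CTCF. In the whole wt list 45.9% of peaks without CTCF and 16.2% of those with CTCF had no mut peak. The covered length was 31.9 kb in wt, 18.6 kb in mut and 55.7 kb in somKO. In mut the peak number was 0.640 times that of wt in the window and 0.961 times in the region of 5 Mb on either side. Peaks with CTCF downstream of the gene, at 61.76, 69.16, 80.35 and 95.07 kb in wt, were listed in all 3 genotypes, whereas the one at 56.57 kb, at the 56.5th percentile in wt, had no mut peak. The peak at 61.76 kb was at the 99.8th percentile of the Rad21 list.

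Atf3 (ENSMUSG00000026628.13, chr1:191170296-191218039, minus strand) encodes a stress-induced partner and repressor of AP-1. The annotated gene has an outer start, but its promoter peaks lay at an inner start 35 kb into the gene. Rad21 there covered 1327 bp in wt, 1988 bp in mut and 1507 bp in somKO, at the 81.9th, 84.9th and 83.7th percentile. The CTCF peak at this start was at the 55.3rd, 69.6th and 67.7th percentile, and mut had a further CTCF peak at the 11.6th percentile. Only 3 of its 20 wt Rad21 peaks had no CTCF peak, the fewest of the 9 windows in wt, against 8 of 27 in mut and 8 of 25 in somKO, where other windows had fewer. Of its 29 CTCF sites 23 were listed in all 3 genotypes.

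Myc (ENSMUSG00000022346.15, chr15:61985391-61990374, plus strand) showed the opposite arrangement. CTCF was packed at the gene, with peaks 1.99 and 0.96 kb upstream and 0.20 and 1.5 kb downstream of the start in wt, at the 84.2nd, 67.2nd, 72.6th and 80.2nd percentile. Only 2 further CTCF peaks lay in the window, 10.11 kb upstream and 80.12 kb downstream, and all 6 sites were listed in all 3 genotypes. The core was found in 5 of the 6 whole peaks in each genotype, against 51.9%, 49.7% and 56.4% over the 9 windows in wt, mut and somKO. Rad21 had 1 broad peak over the 4 CTCF peaks, at the 93.5th percentile in wt, 98.9th in mut and 94.7th in somKO. All other wt Rad21 peaks, 11 of 12, lay downstream of the gene between 5.84 and 93.94 kb and had no CTCF peak. In the mut window 13 of 16 Rad21 peaks had no CTCF peak, and in the somKO window 11 of 13. The strongest of them, 2373 bp wide in wt, 3190 bp in mut and 3357 bp in somKO, lay 53.5 kb downstream at the promoter of Pvt1, the long noncoding RNA gene beside Myc, at the 67.9th, 76.2nd and 73.4th percentile. Of the 18 merged Rad21 sites of the Myc window 7 were shared by all 3 genotypes.

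**Figure D3:**
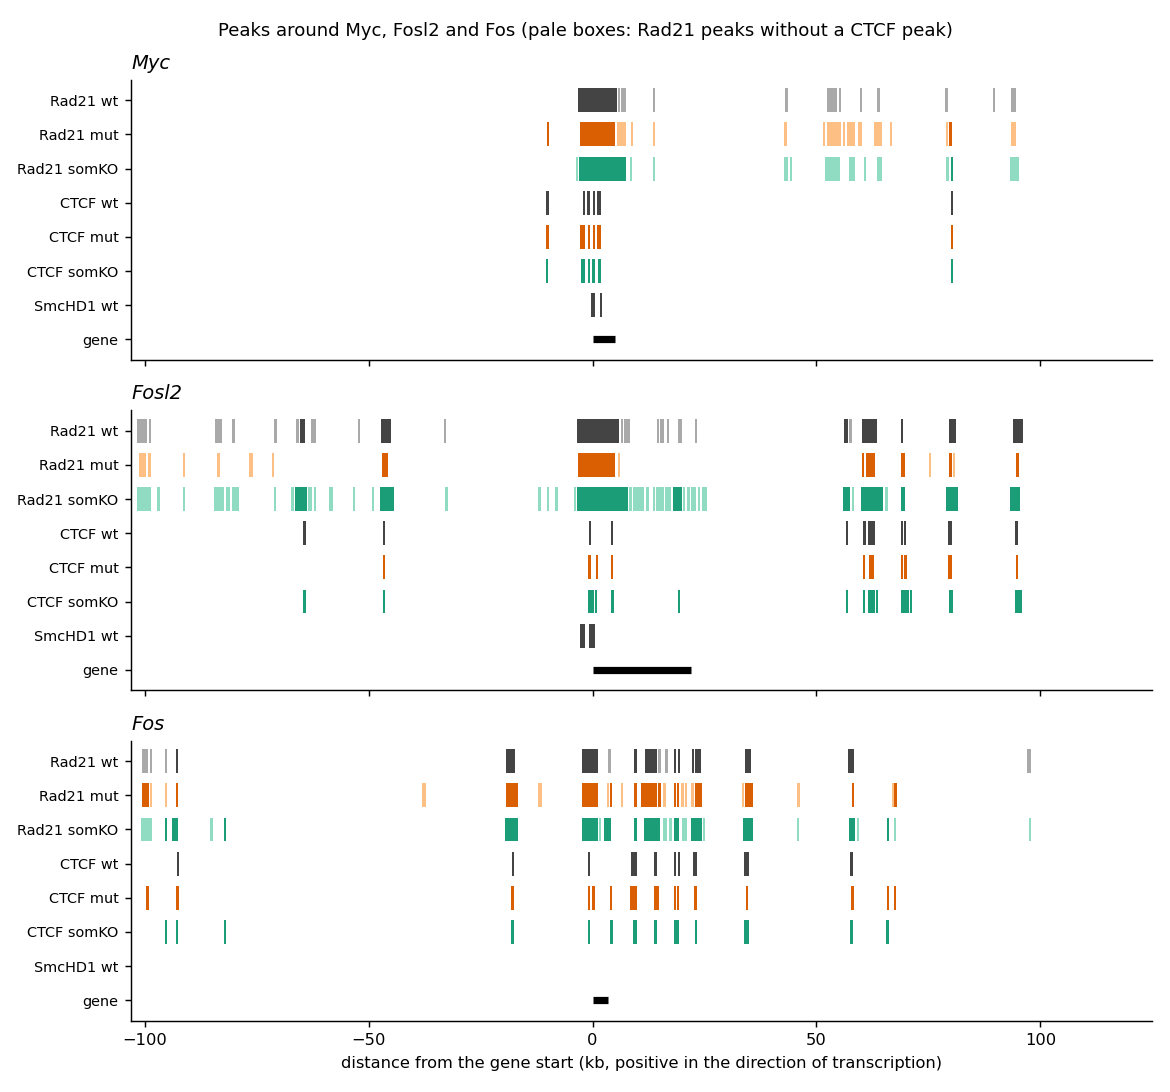
Listed peaks around Myc, Fosl2 and Fos by distance from the gene start in kb, 1 row per merged list, with dark boxes for peaks and pale boxes for Rad21 peaks without a CTCF peak of the same genotype. The black bar is the gene, and the narrowest boxes are widened to stay visible. Downstream of Myc the Rad21 boxes are nearly all pale, in the Fosl2 window the pale boxes thin out in mut and multiply in somKO, and downstream of Fos most Rad21 boxes are dark.

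Over the 9 windows together, 76 of 172 Rad21 peaks had no CTCF peak in wt, a share of 44.2% (37.0 to 51.7), against 41.1% of the whole list. The mut windows gave 42.8% (36 to 49.8; list 41.6%) and the somKO windows 50.9% (44.5 to 57.2; list 45.1%). In all 3 genotypes the value of the whole list lay inside the interval of the windows. With an overlap of 50% of both peaks the shares were 72.7%, 72.7% and 78.2%. Between genes the wt share ran from 15.0% for Atf3 to 91.7% for Myc. Single windows held only 8 to 25 wt Rad21 peaks, so this range cannot be set against the pooled shares of the genotypes. Atf3 and Myc were the lowest and highest of the 9 shares. Their intervals, 5.24 to 36 and 64.6 to 98.5, therefore give the counting error only and are no test of a difference.

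Promoter and distal peaks were then separated, a promoter peak being one within 1 kb of any annotated transcript start. Of the promoter peaks 26 of 69 lacked CTCF in wt, 37.7% (27.2 to 49.5), and of the distal peaks 50 of 103, 48.5% (39.1 to 58.1). In the whole wt list the order was the other way, with 47.6% of promoter and 38.9% of distal peaks. Distal peaks of the windows ranked lower than those of the list. Their median percentiles were 31.7 against 50.4 in wt, 34.5 against 47.8 in mut and 35.9 against 47.0 in somKO. Wt peaks of the windows without CTCF also ranked low, with a median of 21.4 against 74.2 for those with CTCF. Whether rank accounts for the order was not tested. Fosl2 and Myc held 17 and 9 of the 50 distal wt peaks without CTCF, and without these 2 windows the wt shares were 37.5% of 64 promoter and 33.8% of 71 distal peaks. The genes did not share one order, since in wt 9 of 16 promoter but 2 of 7 distal peaks lacked CTCF at Jund, and 2 of 3 but 5 of 16 at Fos. In mut the shares were 35.7% and 48.2%, with 43.6% and 40.8% in the list, and in somKO 41.1% and 56.9%, with 43.9% and 45.5%. At the genes' own starts 2 of 10 peaks lacked CTCF in wt, 1 of 9 in mut and 2 of 12 in somKO. The difference of promoter minus distal share was -10.9 percentage points in wt, with an interval from -25.0 to 4.24, -12.5 in mut (-25.7 to 1.56) and -15.8 in somKO (-28.2 to -2.67). It turned to 6.91, 6.19 and 2.92 when an overlap of 50% of both peaks was required, and to 8.13 in wt with scores of at least 50.

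**Figure D4:**
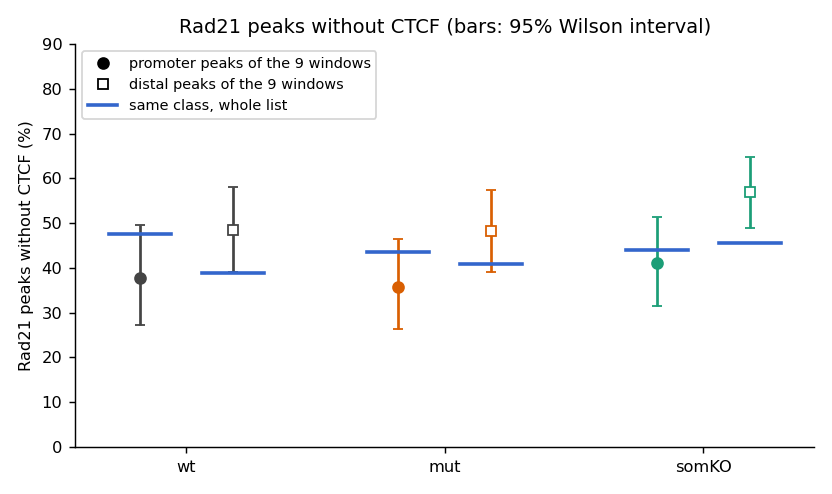
Percentage of Rad21 peaks without a CTCF peak of the same genotype among promoter peaks (filled circles) and distal peaks (open squares) of the 9 windows, with 95% Wilson intervals, beside the same class in the whole list (blue lines). In each genotype the promoter point lies below its list value and the distal point above it.

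The genotypes were compared peak by peak against wt. Of the mut Rad21 peaks 59 of 194 had no wt peak, 30.4% (24.4 to 37.2), against 27.2% of the list, and 36 of 172 wt peaks had no mut peak, 20.9% (15.5 to 27.6), against 28.5%. At promoters 4 of 69 wt peaks had no mut peak, and at distal sites 32 of 103, shares of 5.80% (2.28 to 14) and 31.1% (22.9 to 40.5), against 13.3% and 33.8% of the list. The Fosl2 window held 16 of the 36, and without it 20 of 147 wt peaks, 13.6%, had no mut peak. Of the 59 mut peaks without a wt peak 44 had no CTCF peak, and of 17993 in the whole list 13591 had none. They were 44 of 83 mut peaks without CTCF, against 49.5% in the list. Of the mut peaks with CTCF 15 of 111 had no wt peak, against 11.4%. Of the wt peaks without CTCF 27 of 76 had no mut peak, against 45.9%, and of the mut distal peaks 39 of 110 had no wt peak, against 29.9%. In somKO 101 of 234 Rad21 peaks had no wt peak, 43.2% (37.0 to 49.6), against 37.8%, and 7 of 172 wt peaks had no somKO peak, 4.07% against 7.22%. None of the 69 wt promoter peaks lacked a somKO peak, against 3.68% of the list, and 7 of 103 distal peaks did, against 8.46%. Of the 96 wt peaks with CTCF 1 had none, against 1.91%. Of the 101 somKO peaks without a wt peak 75 were distal, and of 34036 in the whole list 29167 were. They were 75 of 144 distal somKO peaks, against 42.1% of the list. With lists cut to equal length by score, 19.5% of the somKO Rad21 peaks had no wt peak, and with scores of at least 50 the wt Rad21 peaks without a mut peak were 11.8%.

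For CTCF the somKO list was closer to wt in peak number, at 1.16 times against 1.33 times for Rad21. The mut list was at 0.960 times for CTCF and 0.976 times for Rad21. Of 165 mut peaks 31 had no wt peak, 18.8% (13.6 to 25.4), against 16.8% of the list, and 20 of 154 wt peaks had no mut peak, 13% (8.57 to 19.2), against 19.7%. In somKO 38 of 172 peaks had no wt peak, 22.1% against 22.6%, and 10 of 154 wt peaks had no somKO peak, 6.49% against 7.63%. At the genes' own starts, 5 of 16 mut CTCF peaks had no wt peak, 1 each at Jun, Fos, Fosb, Fosl2 and Atf3, while 22.1% of all mut promoter peaks had none. These 5 peaks were weak, the highest, at Fosb, being at the 32.0th percentile of the mut list. In somKO 2 of 13 had none, at Fosb and Fosl2, while 19.0% of all somKO promoter peaks had none.

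Peaks of the 3 genotypes were also merged into sites where they overlapped. Of 195 CTCF sites 123 were listed in all 3 genotypes, 63.1%, and of 256 Rad21 sites 114, 44.5%, against 58.4% and 41.9% over the merged sites of the whole lists. The largest remaining class was 77 Rad21 sites listed in somKO alone, 20 of them in the Fosl2 window. No share of such sites was computed for the whole lists, and the somKO Rad21 list is 1.33 times as long as that of wt. The class can therefore not be called a trait of these windows. Of the Rad21 sites that had a CTCF peak in any genotype 92 of 128 were in all 3 lists, 71.9% against 64.2%, and of those without one 22 of 128, 17.2% against 17.8%. At the genes' own starts all 9 Rad21 sites with CTCF were in all 3 lists, against 79.4% of all promoter sites with CTCF. The 2 own-start sites without CTCF were in 1 list each. Because each gene had a Rad21 peak at its start in every genotype, and broad peaks merge readily, the count of 9 adds little.

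**Figure D5:**
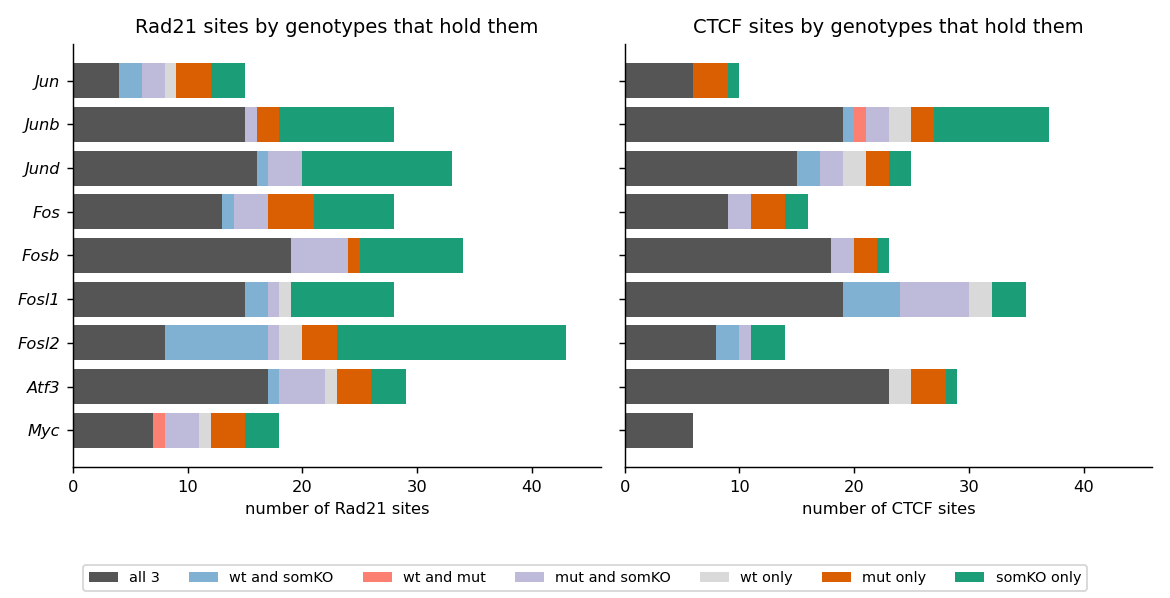
Number of merged Rad21 sites (left) and CTCF sites (right) in the window of each gene, divided by the genotypes whose lists hold them. All 6 CTCF sites of Myc are in all 3 lists, and Fosl2 has the longest Rad21 bar, with 20 sites in somKO only and 8 in all 3.

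SmcHD1 was listed at the promoters of 3 of the 9 genes in wt, Fosl2, Jund and Myc, against 5.67% of all coding genes. The mut list, which gives the background of the antibody, had no peak at any of the 9 starts, against 0.377%. At Fosl2 a peak of 1299 bp over the start was at the 94.2nd percentile of the SmcHD1 list, and a second peak of 1061 bp lay 2.30 kb upstream, at the 81.6th percentile. At Myc peaks of 1047 and 209 bp lay 0.13 and 1.74 kb downstream of the start, at the 67.0th and 41.0th percentile. At Jund a peak of 230 bp lay 0.07 kb downstream, at the 56.3rd percentile. The remaining wt peaks were at the promoters of Ssbp4, 89.32 kb upstream of Jund, and of Banf1 and Eif1ad, 80.77 kb upstream of Fosl1. All 7 wt peaks overlapped a Rad21 wt peak and 5 overlapped a CTCF wt peak, against 25.9% and 20.4% of the SmcHD1 list. Most of the 7 lay at promoters, whereas 26.2% of the SmcHD1 list did, so this contrast does not separate the genes from the peak class. With scores of at least 50 only 3 of the 7 remained. The mut list had 1 peak in the windows, 10.08 kb upstream of Fosb in an exon of D830036C21Rik.

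Letters of the AP-1 site were found in a lower share of the distal Rad21 peaks of these windows than of the list in wt and mut, where the interval lay below the value of the list, but not in somKO, where the interval held it. In the central 301 bp of distal Rad21 peaks without CTCF, TGANTCA was found in 6 of 50 wt peaks, 12% (5.62 to 23.8), against 30.2% of 19483 such peaks in the list. In mut it was found in 9 of 53, 17% (9.20 to 29.2), against 29.5%, and in somKO in 21 of 82, 25.6% (17.4 to 36), against 28.6%. Of the somKO peaks with the letters 7 lay in the Fosl2 window and 4 in the Myc window, and of the wt peaks 1 and 2. Distal Rad21 peaks of these windows ranked lower than those of the lists, as given above, and the shares were not matched for rank. Over all Rad21 peaks with CTCF the letters were found in 9.88% of the wt list. The CTCF core was found in the central 301 bp of 52 of 154 wt CTCF peaks, 33.8% (26.8 to 41.5), against 39.7% of the list. Upstream of the genes 21 wt CTCF peaks had cores on the strand of the gene and 16 on the other strand, and downstream 19 and 14, so that neither side had one prevailing direction.

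The 25 other genes of these pathways, the bZIP partners, the Myc network and further immediate-early genes with the regulator Srf, were counted in the same way. A Rad21 peak lay at the start of 24 of them in wt, 23 in mut and 24 in somKO, a CTCF peak at 14, 15 and 17, and a SmcHD1 peak at 4 in wt and 1 in mut. The median number of Rad21 peaks per window was 19.0 in wt, against 21 for the 9 genes, and ran from 4 for Mycn to 31 for Mafg. Of the 440 wt Rad21 peaks in their windows 189 had no CTCF peak, 43.0% (38.4 to 47.6). Klf6, named after its value was seen, came closest to Myc, with 18 of 19 wt Rad21 peaks without CTCF. The windows of Jdp2 and Batf3 overlap those of Fos and Atf3, so that some peaks count in both lists of genes.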

How the data were processed

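The authors immunoprecipitated chromatin fixed with formaldehyde, preceded by EGS for SmcHD1 and Rad21, aligned reads with bowtie2 to an mm10 genome masked at strain variants, and called narrow peaks with MACS2 on merged replicates and both alleles. The MACS2 version was not given in the sources used here. The deposited lists give positions and a score per peak. The score is probably 10 times -log10 of the q-value, an inference from its lowest value of 13 in every list, and it was used only as a rank or floor within a list. The libraries of H3K27me3 and of input chromatin were not analysed here.

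Overlap required 1 bp in the same genotype. A promoter peak lay within 1 kb of a GENCODE M21 transcript start, and a percentile is the rank of a peak's score in its list, ties averaged. Positions count from 1. Analyses used Python 3.11.15 with pandas 2.3.3, numpy 2.4.6 and scipy 1.17.1, and overlap steps were tested on simulated data. The members and lists of genes were chosen with earlier results of these data known. All 9 members are named, neighbours only with a peak at their promoter or where a described peak lies in them, and of the 25 other genes those with the most and fewest wt Rad21 peaks, beside Srf, named for its role, Jdp2 and Batf3, named for their overlapping windows, and Klf6, named after its value was seen. The ranks of single peaks, widths, covered lengths, regions of 5 Mb, comparisons of own starts and values without the Fosl2 and Myc windows were chosen after the values were seen. Sequences come from RefSeq GRCm38.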

Additional observations from a re-analysis of the deposited data

How the results depend on the processing

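Of 140 alternative values 99 stayed within the counting interval, 36 moved beyond it and 5 reversed. The reversed ones were the promoter minus distal share of Rad21 peaks without CTCF, which was -10.9, -12.5 and -15.8 percentage points in wt, mut and somKO and became 6.91, 6.19 and 2.92 with an overlap of 50% of both peaks, and in wt 8.13 with scores of at least 50 and 3.70 without the Fosl2 and Myc windows, an alternative chosen after seeing the data. In somKO it was -30.5 with windows of 50 kb. With scores of at least 50, Rad21 peaks per 100 kb were 6.67, 7.46 and 9.09 (9.04, 10.2 and 12.3 in the report's setting), the share without CTCF was 30.7%, 30.3% and 38.7%, the mut and somKO Rad21 peaks without a wt peak were 21.1% and 34.7%, the wt Rad21 peaks without a mut or somKO peak 11.8% and 0.787%, the wt CTCF peaks without a somKO peak 2.16%, and the SmcHD1 wt peaks 3. Without those 2 windows the share without CTCF was 35.6% in wt and 42.5% in somKO, 14.1% of wt Rad21 peaks had no mut peak, and SmcHD1 wt peaks were 3. With lists of equal length, somKO had 7.67 CTCF and 8.36 Rad21 peaks per 100 kb (7.51 and 8.78 in wt, 8.67 and 10.2 in mut), a share without CTCF of 35.8%, and 12.3% of CTCF and 19.5% of Rad21 peaks without a wt peak. With an overlap of 50%, the share without CTCF was 72.7%, 72.7% and 78.2%, peaks without a wt peak were 30.9% and 32.6% for CTCF and 46.4% and 64.5% for Rad21 in mut and somKO, and wt peaks without a partner 26.0% and 24.7% for CTCF and 39.5% and 51.7% for Rad21. CTCF within 500 bp gave 35.1% in mut, CTCF of any genotype 34.3% in wt, and windows of 200 kb 2 SmcHD1 mut peaks. The cause was not tested. No paired analysis was possible because each list pools the libraries of its group, and for the same reason no replicate could be left out. Depth is unknown, so that a peak missing from a list may lie under the threshold.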
